A study of Mus musculus with 4 samples.

Results

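Met Grid2ip neurons are a small group of GABAergic nuclei in the mouse lateral septum (LS) that carry transcripts of Met, the receptor tyrosine kinase for hepatocyte growth factor, together with Grid2ip, which encodes delphilin, a postsynaptic scaffold protein of glutamate receptors. They were selected by a gate on unique molecular identifiers (UMIs), each of which stands for 1 captured transcript. A nucleus was a member if it held at least 2 Met UMIs, at least 1 Grid2ip UMI, at least 1 UMI of Gad1 or Gad2, 0 UMIs of Col15a1 and fewer than 3 of St18. Col15a1 marks a neighbouring LS population, and St18 is active in oligodendrocytes. Of 48940 nuclei that passed the limits of quality, 433 were members.

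The nuclei came from single-nucleus RNA sequencing (snRNA-seq) of microdissected, snap-frozen LS tissue. All animals were male and aged 6 to 8 weeks, and each of the 4 libraries pooled the tissue of 3 mice. C57J mice (C57BL/6JNifdc) provided 2 libraries, of which C57J 1 was sequenced in the first batch and C57J 2 in the second. The nude library (BALB/c nude mice, which carry a Foxn1 mutation and lack mature T cells) and the BALB/c library (the same background with T cells) were also in the second batch. Nude and BALB/c mice therefore share the BALB/c background and differ from C57J mice in many alleles besides those that act on immunity. The study asked how the LS differs between these immune and genetic backgrounds. Because mice were pooled, every p-value measures the spread between libraries, and differences between single mice are not visible.

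C57J 1 contributed 89 members, C57J 2 84, nude 83 and BALB/c 177. The median member of these libraries held 9026, 8066, 8518 and 14463 UMIs, respectively. BALB/c was therefore both the deepest library and the source of the largest number of members, and with 2709816 of the summed UMIs it held more than the other 3 libraries together (886036, 768782 and 788918). It also stood apart in a few genes of these neurons, among them Il1rapl2, Vip and Foxp2, and calls against the other LS neurons that were lost without it are named or counted beside each gene list. Any pair of libraries shared between 29 and 63 barcodes, counted over all barcodes before the limits of quality were applied. A doublet score placed 14.6% of the C57J 1 members, 13.1% of the C57J 2 members, 14.5% of the nude members and 7.34% of the BALB/c members among the likely doublets, and these were retained except where stated.

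MET is a cell-surface receptor that dimerises when hepatocyte growth factor binds, and it then recruits adaptors such as GAB1, GRB2 and SHC to start the RAS, PI3K and STAT3 cascades. In the developing forebrain the receptor is known for its part in axon growth and in the maturation of synapses. Delta glutamate receptors work differently from the other glutamate receptors, since they bind secreted cerebellins that in turn bind presynaptic neurexins, and so bridge the synaptic cleft. The LS itself is built mostly of inhibitory neurons that receive hippocampal glutamatergic input and project to the hypothalamus and midbrain.

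Markers of GABAergic LS neurons were present in these nuclei. Trpc4, a cation channel gene that the study used to mark LS neurons and that was not in the gate, was found in 100% of the members of C57J 1, C57J 2 and BALB/c and in 98.8% of those of nude. Slc32a1, the vesicular GABA transporter, was found in 47.2%, 50.0%, 36.1% and 65.0% of the members of C57J 1, C57J 2, nude and BALB/c. No background share is given for Trpc4 and Slc32a1, so these shares describe detection only. By contrast Slc17a6, the vesicular glutamate transporter of subcortical neurons, had a UMI in 5.62%, 5.95%, 3.61% and 5.08% of members, and Slc17a7 in at most 1.20%. Of 4 vascular genes, endothelial Flt1 and the pericyte gene Rgs5 were at 0 in the members of every library, while Pdgfrb was detected in each. The medial septum marker Elavl2 lay at 44.0, 29.9, 53.2 and 27.3 CPM (UMIs of the gene scaled to a common library total, counts per 1000000) in the members of C57J 1, C57J 2, nude and BALB/c, which was below the other LS neurons in each library (109.7, 119.8, 153 and 198 CPM). In what follows, 4 values in a row are always in this order of libraries. The 4 vascular genes summed to 5.64, 2.60, 1.27 and 1.85 CPM in the members. In the other LS neurons they summed to 6.19, 2.42, 4.81 and 4.45 CPM.

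Met and Grid2ip chose the members, so their values are a description. Met lay at 313, 356, 285 and 258 CPM, from 277, 274, 225 and 700 UMIs. Grid2ip lay at 135, 161, 161 and 124 CPM. Members with only the 2 Met UMIs that the gate requires were 42 of the C57J 1, 39 of the C57J 2, 51 of the nude and 40 of the BALB/c members, and 6 or more Met UMIs were seen in 9, 10, 5 and 32. The BALB/c members thus lay farther above the limit in UMIs, although their Met level in CPM was the lowest. Gad1 had a UMI in 91.0%, 85.7%, 80.7% and 96.6% of members and Gad2 in 93.3%, 82.1%, 91.6% and 93.8%.

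At the limit itself, nuclei that met every other condition with exactly 1 Met UMI numbered 86, 80, 93 and 83, and those with exactly 2 numbered 42, 39, 51 and 40. Stac2, a gene not used by the gate and described below, stood at 243, 289, 274 and 274 CPM just outside the limit and at 339.9, 269, 196 and 409 CPM just inside it. Mob3b stood at 469, 477, 583 and 571 CPM outside and at 519, 555, 582 and 628 CPM inside. The excluded nuclei with 1 Met UMI thus carried Stac2 and Mob3b at levels of the same order as the members next to them.

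The background of the Met and Grid2ip limits was gauged in oligodendrocytes, which should express neither gene. The limits on Gad1 and Gad2, Col15a1 and St18 were not applied there, so this is not a background of the whole gate. The median depths of these oligodendrocyte nuclei, given below, were under those of the members, so stray UMIs at the depth of the members were not gauged. Among 2404 nuclei with at least 2 UMIs each of Mog and Mobp, 22 had 2 Met UMIs or more, and 8 of these also had a Grid2ip UMI. A single Met UMI or more was found in 4.73%, 3.13%, 4.33% and 3.80% of these oligodendrocyte nuclei, at median depths of 3401.5, 3003, 2904 and 4331 UMIs, and Grid2ip in 1.64%, 1.04%, 2.88% and 1.11%. Gad1 and Gad2 UMIs were common there (31.9% to 51.3% and 41.0% to 59.1%), so a single Gad UMI also occurred outside neurons. The oligodendrocyte genes as a group summed to 459, 376, 249.7 and 307 CPM in the members against 429, 418, 293 and 272 CPM in the other LS neurons, over 6 genes measured.

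Of all nuclei kept, the members made up 0.655%, 0.751% and 0.677% in C57J 1, C57J 2 and nude (exact 95% intervals 0.527 to 0.806, 0.599 to 0.928 and 0.540 to 0.839), but 1.49% in BALB/c (1.28 to 1.72). These Clopper-Pearson intervals cover counting error only. The BALB/c share lay above the other 3, whose intervals overlapped. BALB/c was also the deepest library, and the shares were therefore taken at equal depth. When nuclei with at least 6000 UMIs were thinned to 6000 UMIs before the gate was applied, 37 of 7228, 39 of 4880, 35 of 5648 and 58 of 7770 nuclei qualified. The shares were then 0.512% (0.361 to 0.705), 0.799% (0.569 to 1.09), 0.620% (0.432 to 0.861) and 0.746% (0.567 to 0.964), and the 4 intervals overlapped. Before thinning the same deep nuclei had given 1.15%, 1.50%, 1.29% and 2.28%. At equal depth a difference in share between the libraries was thus not detectable.

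**Figure D1:**
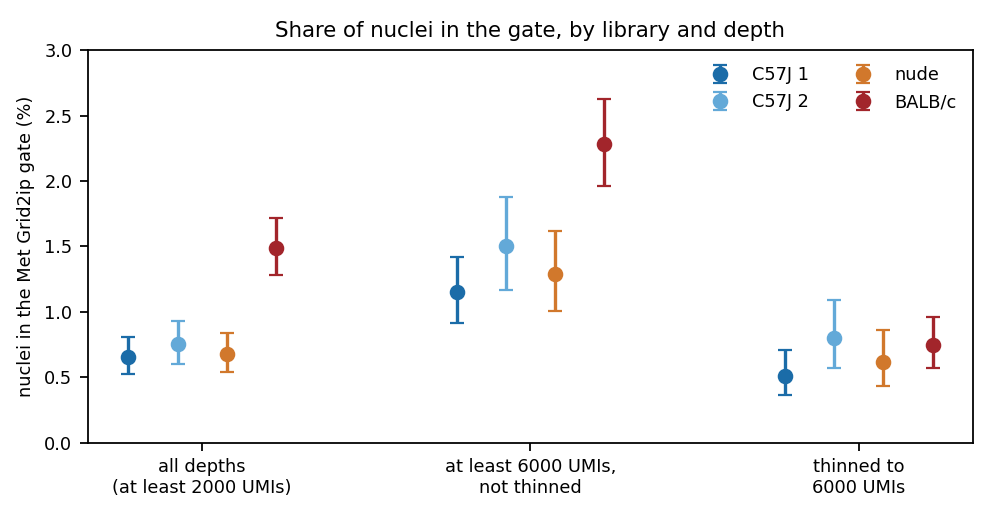
Share of nuclei in the gate (percent, vertical axis) in each library, for all nuclei with at least 2000 UMIs, for those with at least 6000 UMIs, and for the latter thinned to 6000 UMIs. Bars through the points are 95% exact binomial intervals; BALB/c stands above the other libraries at 1.49% and falls back among them, to 0.746%, once depth is equal.

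To describe what these neurons share beyond the gate, the UMIs of the members were summed in each library and compared with those of 19968 other Trpc4 GABA neurons, which had at least 2 Trpc4 UMIs, a Gad1 or Gad2 UMI, fewer than 3 St18 UMIs and no Met UMI. The test was edgeR's quasi-likelihood test with the library as a block, over 16446 genes, and a call required both an adjusted p (Benjamini-Hochberg) under 0.05 and a difference larger than 0.5 on the log2 scale. Of the genes tested 5.80% were called higher in the members and 9.08% lower (954 and 1493 genes). The median of all tested genes was −0.06. Since the gate itself was drawn around known markers, these p-values say how steadily a gene went with the gate across libraries, not that the group exists.

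Stac2 (chromosome 11, 98036623 to 98053462, minus strand, mm10) encodes an SH3 and cysteine-rich domain protein of a family that binds voltage-gated calcium channels. It lay at 377, 299, 227 and 319.9 CPM in the members against 44.6, 40.5, 39.0 and 35.0 CPM in the other neurons. The lowest member library was several times the highest comparison library, and the difference was 3.06 ± 0.09 (log2, SE; adjusted p = 1.87e-31, edgeR). With every nucleus thinned to 2000 UMIs, a Stac2 UMI was found in 49.4%, 41.7%, 25.3% and 45.8% of members and in 7.08%, 6.12%, 5.79% and 5.78% of the others. In oligodendrocytes at full depth it was found in 4.70% to 9.62% of nuclei. Stac2 did not set the members apart from all LS neurons, since it also had a UMI in 65.4%, 60.0%, 51.6% and 70.5% of the Crhr2 Dach2 neurons described below, from which the members differed by 0.44 ± 0.08, under the size required for a call.

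Mob3b (chromosome 4, 34949074 to 35157484, minus strand), which encodes a MOB kinase activator, had 517, 505, 646 and 669 CPM in the members and 82.7, 83.5, 96.2 and 76.0 CPM in the others. The groups did not overlap and the difference was 2.90 ± 0.08 (adjusted p = 7.67e-32, edgeR). A Mob3b UMI was also found in 31.2% to 42.8% of oligodendrocytes. Ndnf, a secreted neurotrophic factor, lay at 119.6, 119.7, 110.3 and 141 CPM against 23.1, 26.3, 22.5 and 15.7 CPM. Tec, a cytoplasmic tyrosine kinase, lay at 71.1, 85.9, 72.3 and 66.1 CPM against 13.7, 12.7, 12.1 and 9.90 CPM. Both were steady across libraries, with differences of 2.69 ± 0.12 and 2.73 ± 0.13. Against Crhr2 Dach2 neurons the difference of Mob3b was 1.05 ± 0.10 and that of Ndnf 2.18 ± 0.16, while Tec, at 0.45 ± 0.15, was under the size limit.

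Further genes with large differences in every library were Eva1c (46.3, 29.9, 40.6 and 68.6 CPM against 7.60, 6.89, 7.79 and 5.86), the serine protease gene Prss23 (21.4, 15.6, 19.0 and 36.9 CPM against 4.40, 3.60, 3.03 and 4.82) and the RNA-binding protein gene Igf2bp2 (28.2, 19.5, 15.2 and 20.3 CPM against 3.12, 3.23, 2.17 and 4.63). The remaining 3 of the 10 largest were long noncoding transcripts, among genes averaging at least 20 CPM in the members whose libraries all separated. Gm20619 lay at 35.0, 46.8, 41.8 and 31.0 CPM against 2.57 to 4.49, 4921539H07Rik at 88.0, 48.1, 114 and 175 CPM against 6.95 to 16.5, and 6330411D24Rik at 137, 138, 179 and 225 CPM against 17.1 to 31.8.

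Receptor and channel genes were among those lower in the members. Drd3, the dopamine D3 receptor, lay at 2.26, 3.90, 1.27 and 1.11 CPM in the members and at 22.0, 15.6, 18.7 and 26.8 CPM in the other neurons (−3.58 ± 0.33, adjusted p = 1.21e-12, edgeR). Cacna1h, a low-threshold T-type calcium channel, lay at 4.51, 0, 5.07 and 2.21 CPM against 25.8, 19.1, 21.7 and 25.6 CPM. Gsg1l, an auxiliary subunit of AMPA receptors, lay at 2.26, 7.80, 1.27 and 3.69 CPM against 32.5, 28.3, 26.4 and 36.5 CPM. In none of these did a member library reach the lowest comparison library.

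Ndst4, an enzyme of heparan sulfate modification, was lower by −2.81 ± 0.18 but varied among the member libraries (23.7, 5.20, 41.8 and 9.23 CPM against 123, 123, 137 and 126). Vwa5b1 was listed at 0, 5.20, 3.80 and 1.48 CPM against 23.5, 24.7, 20.8 and 17.2. The noncoding Otx2os1, an opposite-strand neighbour of the transcription factor gene Otx2, stood at 5.64, 6.50, 7.61 and 2.58 CPM against 27.2, 32.2, 43.9 and 36.8. The noncoding 2310002F09Rik had 2 UMIs in all members, both in C57J 2 (2.60 CPM), against 26.1, 34.2, 18.1 and 9.87 CPM, a ratio of 53.5-fold lower with a counting interval of 14.8 to 442. Sfta3-ps (−3.53 ± 0.27), 9530026P05Rik (−3.46) and Lncenc1 (−2.82) completed the 10 largest falls below the comparison level. This ranking covers only genes that averaged at least 20 CPM in the higher group and whose libraries all separated.

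**Figure D2:**
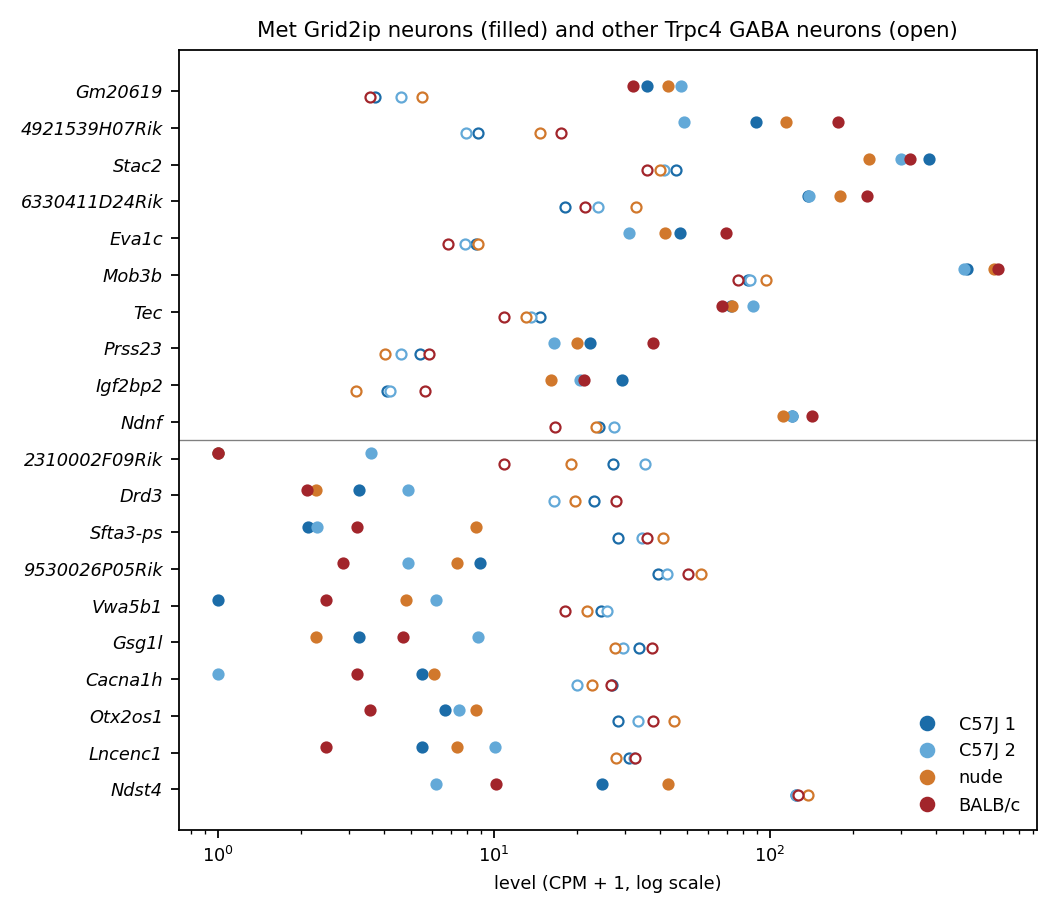
Level of the 20 genes above in CPM + 1 on a log axis, with filled points for the members, open points for other Trpc4 GABA neurons and 1 colour per library. For Stac2 the filled points run from 227 to 377 and the open points from 35.0 to 44.6. Genes were named only if the filled points lay on the same side of the open points in all 4 libraries.

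Ddr2, a collagen-binding receptor tyrosine kinase that the study lists with Met among the markers of LS subclusters, was kept out of the gate because its level differs between strains. It lay at 92.5, 111, 27.9 and 48.3 CPM in the members and at 14.5, 18.0, 8.68 and 6.67 CPM in the other neurons. In every library the members exceeded the others (2.68 ± 0.14, adjusted p = 5.78e-21, edgeR), while the nude and BALB/c members both fell short of both C57J member libraries. A Ddr2 UMI was found in 51.7%, 51.2%, 19.3% and 40.7% of members and in 9.17%, 9.81%, 5.42% and 6.38% of the others.

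The ligand and the adaptors of MET were examined next, as 33 genes of the pathway of which 28 were tested. Higher were 2 and lower were 5, with a median difference of −0.11 against −0.06 over all genes. Over all genes 5.80% were higher and 9.08% lower, so the count of higher genes is near the general share and shows nothing about the list. Hgf, the ligand, was scarce, with 5, 4, 2 and 6 UMIs in the members (5.64, 5.20, 2.54 and 2.21 CPM against 1.36, 1.56, 1.48 and 1.97), and its difference of 1.14 ± 0.48 did not pass (adjusted p = 0.0905, edgeR). Shc3, an SHC adaptor of neurons, lay at 146, 183, 189 and 205 CPM against 132, 129, 128 and 139 (0.56 ± 0.08, adjusted p = 3.37e-07, edgeR), and Cbl, the ubiquitin ligase that removes activated receptors, was higher by 0.52 ± 0.08. Shc3 was no longer called when BALB/c was left out and Cbl when nude was left out.

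On the lower side, Gab2, a docking adaptor, lay at 51.9, 66.3, 79.9 and 80.4 CPM against 121, 126, 143 and 142, below the comparison in every library (−0.81 ± 0.10, adjusted p = 1.39e-09, edgeR). Spint1 and Spint2, inhibitors of the proteases that activate hepatocyte growth factor, were lower by −2.24 ± 0.49 and −0.92 ± 0.25. Plxnb1 and Plxnb2, plexins that can associate with MET, were lower by −1.08 ± 0.26 and −0.70 ± 0.21. Spint2 and Plxnb2 were not called without BALB/c. Grb2, Ptpn11, Sos1, Pik3ca and Stat3, the shared relays of the pathway, were not called in either direction.

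Of 10 genes of the delta receptor complex, 8 were tested and 0 were called. Over all genes 14.9% were called, a share at which few or none of 8 would be. The receptor gene Grid1 differed by 0.19. The cerebellin ligands were almost absent from the members themselves, with Cbln1 at 0, 0, 0 and 0.738 CPM, Cbln2 at 0, 1.30, 3.80 and 1.11 CPM, Cbln4 at 1.13, 0, 2.54 and 2.58 CPM, and Cbln3 at 0. The presynaptic partner gene Nrxn3 differed by 0.00.

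Of 25 tested marker genes that distinguish LS subtypes, 9 were higher and 14 lower in the members (median −1.24), against 5.80% and 9.08% of all genes. Without BALB/c, 8 and 12 of them were called. Col6a3, a chain of collagen VI, was the highest of them apart from Ddr2, at 121, 91.1, 191 and 228 CPM against 37.5, 34.2, 37.0 and 24.3 (2.44 ± 0.15, adjusted p = 5.47e-19, edgeR). Cpa6, a secreted carboxypeptidase, lay at 275, 139, 322 and 252 CPM against 158, 198, 146 and 88.2, so that C57J 2 went the other way from the remaining libraries (0.95 ± 0.13, not called by DESeq2). Dach2, a transcriptional cofactor, lay at 149, 113, 108 and 154 CPM against 52.1, 68.6, 81.2 and 67.9, and Ror1, a Wnt receptor, was higher by 1.13. Sall3 (1.05), Acvr1 (0.90), Crhr2 (0.85 ± 0.19) and Dgkg (0.65) were also called, but Crhr2 was lost without BALB/c.

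Several markers of other LS groups were lower. The axon guidance ligand Sema3a differed by −2.10, the transcription factors Foxp2 and Otx2 by −1.82 and −1.62 (Otx2 was not called without BALB/c), and the peptide hormone receptors Calcr and Pth2r by −2.91 and −2.15. Esr1, the estrogen receptor that marks a ventral LS group, lay at 4.51, 0, 3.80 and 2.21 CPM in the members and at 11.3, 16.7, 17.9 and 14.7 CPM in the others (−2.44 ± 0.33, adjusted p = 6.04e-08, edgeR). Esr2 had 0 UMIs in all members against 3.34 to 3.71 CPM. It was at least 4.97-fold lower by the counting interval, or 6.11-fold with a floor of 3 UMIs over all members.

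**Figure D3:**
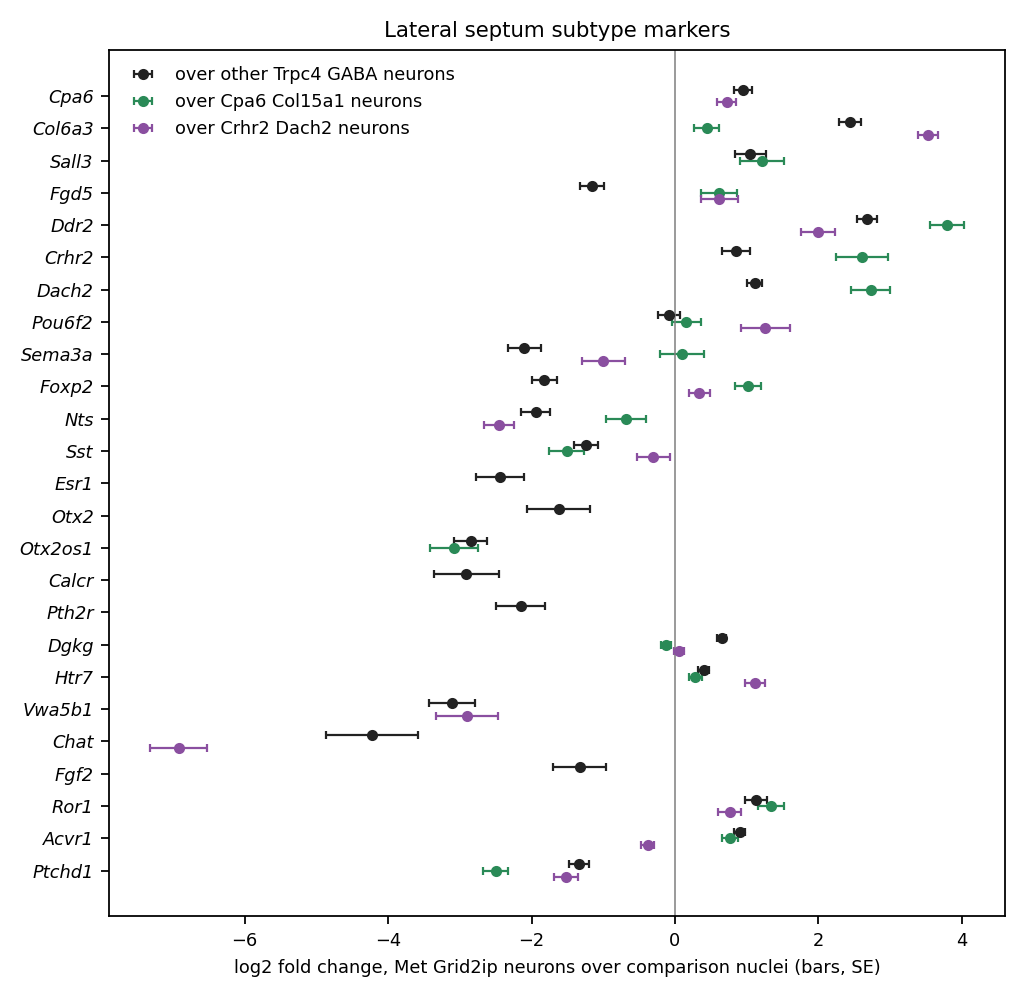
Differences (log2, with SE bars) of 25 LS subtype markers between the members and other Trpc4 GABA neurons (black), Cpa6 Col15a1 neurons (green) and Crhr2 Dach2 neurons (purple), with genes of a gate or not tested left out. Ddr2 lies to the right in all 3 comparisons (2.68, 3.79 and 1.99), while Col6a3 lies far to the right over the Crhr2 Dach2 and other neurons (3.53 and 2.44) and the points of Chat rest on 2 UMIs in the members.

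Ionotropic and metabotropic glutamate receptors differed in both directions. Of 22 tested, 7 were higher and 5 lower, with a median of −0.10, against 5.80% and 9.08% of all genes. All of these called receptors kept the call without BALB/c. The presynaptic metabotropic receptor Grm4 lay at 108, 91.1, 96.3 and 73.1 CPM in the members against 30.1, 28.6, 32.0 and 32.3 CPM (1.64 ± 0.11, adjusted p = 2.35e-17, edgeR). Gria1, an AMPA receptor subunit, lay at 4748, 4379.7, 6036 and 6457 CPM against 2200.1, 2263, 2541 and 2397 (1.29 ± 0.06). For both genes every member library exceeded every comparison library.

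The NMDA receptor subunits went in opposite directions. Grin2b lay at 2606, 2595, 2426 and 2834 CPM against 1270.5, 1308, 1336 and 1340.1, higher by 1.10 ± 0.06. Grin2a lay at 128, 114, 194 and 64.9 CPM against 547, 498, 487 and 579 (−2.11 ± 0.13, adjusted p = 6.33e-19, edgeR), and Grin3a at 23.7, 29.9, 48.2 and 13.3 CPM against 142, 135, 136 and 147 (−2.43 ± 0.15). Neither pair of ranges overlapped. The AMPA subunit Gria2 (0.70), the kainate subunit Grik1 (0.61) and Grm8 (1.09) were higher, and Grik2 (−1.15), Grik4 (−1.48) and Grm3 (−0.91) were lower.

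Among 20 GABA and glycine receptor genes, 4 were higher and 6 lower (median −0.11), against 5.80% and 9.08% of all genes. Gabrg3, a gamma subunit of the GABA-A receptor, lay at 3056, 3092, 3358 and 3298 CPM against 1829, 1828, 1907 and 1518 (0.96 ± 0.06, adjusted p = 1.63e-18, edgeR). The glycine receptor subunit Glra3 (−2.40) was lower and the GABA-B subunit Gabbr1 (0.66) higher. Gabra2 (0.51) and Gabra5 (0.55), just above the size limit, were not called without BALB/c, nor was Gabra2 without nude. Gabrq (−1.89) was lost on leaving out BALB/c or either C57J library.

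Receptors for monoamines and acetylcholine had 6 higher and 8 lower among 29 genes tested, against 5.80% and 9.08% of all genes, with a median of −0.31. Chrm3, the Gq-coupled M3 muscarinic receptor, lay at 1789, 1422, 1666 and 1681 CPM against 491, 507, 469 and 429.9 (1.90 ± 0.07, adjusted p = 1.50e-27, edgeR). Htr1f, a Gi-coupled serotonin receptor, lay at 562, 646, 534 and 659.8 CPM against 221, 250.3, 282 and 294 (1.31 ± 0.07). Drd2, the Gi-coupled dopamine D2 receptor, lay at 64.3, 67.6, 67.2 and 56.1 CPM against 39.7, 34.3, 37.4 and 31.9 (0.93 ± 0.11). In each case all 4 member libraries were above all 4 comparison libraries.

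The reverse held for Htr2c, a Gq-coupled serotonin receptor, at 165, 194, 316 and 175 CPM against 491, 512, 595 and 515 (−1.25 ± 0.08), and for the alpha-1A adrenergic receptor Adra1a at 5.64, 6.50, 2.54 and 6.64 CPM against 36.9, 32.6, 33.1 and 34.0 (−2.45 ± 0.21). Chrna4 (1.88), Adra2c (1.63) and Chrm1 (1.51) were higher as well. Hrh1 (−2.34), Htr4 (−1.81), Htr2a (−1.32), Htr1a (−1.21) and Adrb1 (−1.09) were lower. Without BALB/c, Adra2c, Htr2a and Htr1a were not called, nor was Htr1a without nude.

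Of 41 tested receptors for peptides and hormones, 8 were higher and 16 lower, against 5.80% and 9.08% of all genes, with a median of −0.28. Without BALB/c, 5 and 7 of these were still called. Nr3c2, the mineralocorticoid receptor, lay at 1559.8, 1283, 1628 and 1726 CPM in the members against 572, 597, 629 and 575 CPM (1.49 ± 0.07, adjusted p = 9.25e-24, edgeR). Its relative Nr3c1, the glucocorticoid receptor, lay at 47.4, 59.8, 59.6 and 49.1 CPM against 114, 103, 122 and 108 (−0.97 ± 0.10). The 2 corticosteroid receptors thus differed in opposite directions from the other neurons, each without overlap.

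Crhr1, a receptor of corticotropin-releasing hormone, lay at 28.2, 36.4, 22.8 and 28.8 CPM against 13.1, 12.6, 12.7 and 15.1 (1.18 ± 0.16). Prlr, the prolactin receptor, lay at 152, 100.2, 269 and 194 CPM against 95.9, 109, 121 and 96.4 (0.86 ± 0.10), although the C57J 2 members did not exceed the C57J 2 comparison. Thrb, a thyroid hormone receptor, lay at 232, 222, 270.0 and 202 CPM against 646, 611, 607 and 669 (−1.37 ± 0.08). The opioid receptor Oprm1 (−1.08) was also lower. Oprk1 (0.77) and Oxtr (0.99) were called higher and Glp1r (−0.89), Hcrtr2 (−1.08) and Lepr (−1.53) lower, but none of these 5 without BALB/c. Oxtr was lost without nude or C57J 1 too, and Lepr without C57J 1.

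**Figure D4:**
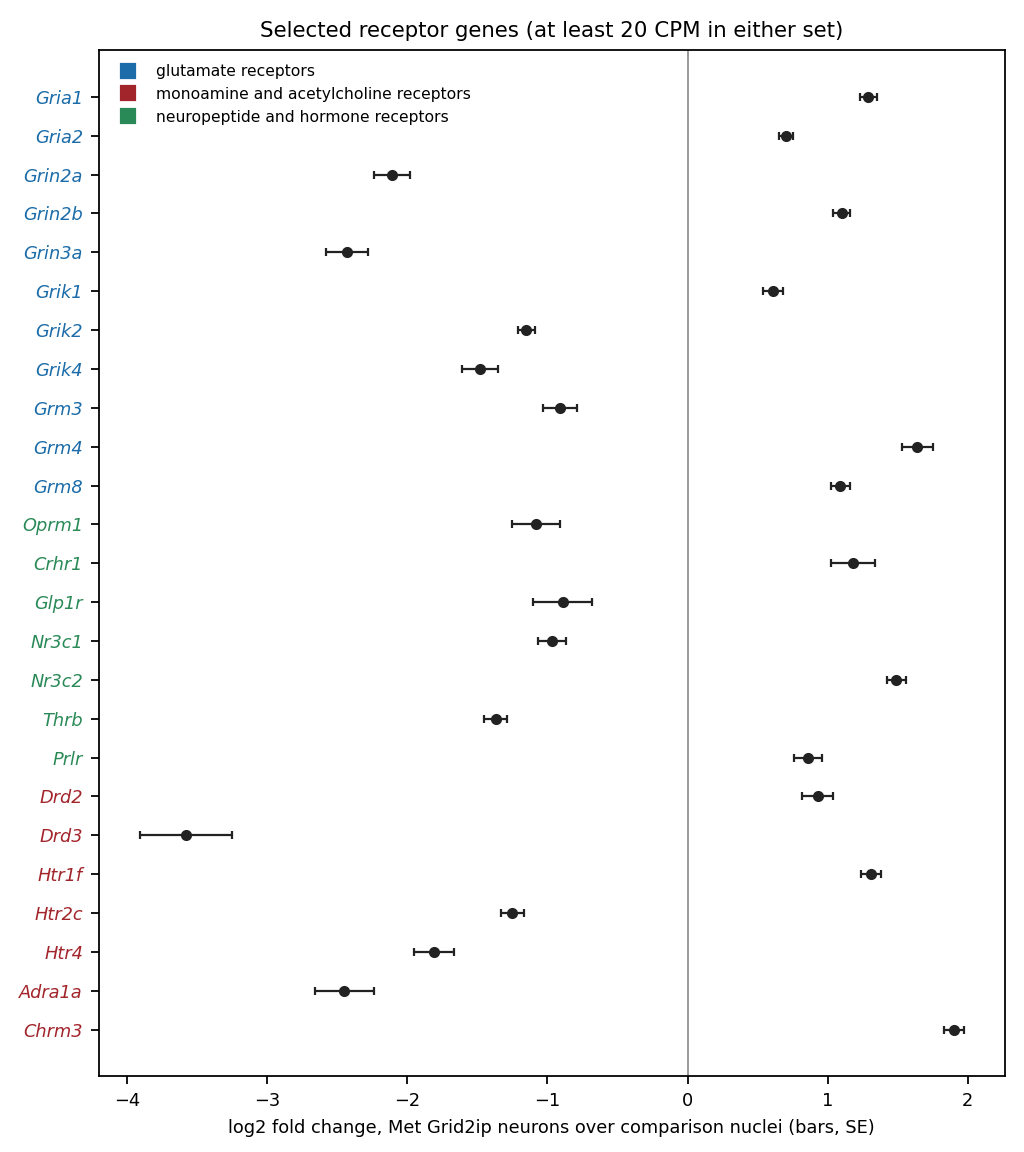
Differences (log2, with SE bars) between the members and other Trpc4 GABA neurons for glutamate, neuropeptide and hormone, and monoamine and acetylcholine receptor genes described above that had at least 20 CPM in either group. Chrm3 (1.90), Grm4 (1.64) and Nr3c2 (1.49) lie far to the right, and Grin3a (−2.43) and Grin2a (−2.11) far to the left.

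Neuropeptide transcripts were sparse. Of 15 tested, 2 were higher and 5 lower (median −0.79), against 5.80% and 9.08% of all genes. Without BALB/c, 0 and 3 of these were called. Sst lay at 14.7, 13.0, 25.4 and 12.9 CPM against 40.2, 32.4, 38.3 and 42.1, and Nts at 9.03, 5.20, 6.34 and 9.23 CPM against 33.4, 26.8, 28.0 and 37.3. Both peptides were lower in every library, by −1.24 and −1.94. The higher call of Vip (2.78 ± 0.42) rested on 1 library, with 0, 0, 1.27 and 22.1 CPM and 60 of 61 UMIs in BALB/c, and that of Cck (1.96 ± 0.54) on 18 UMIs and on the same library.

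Potassium channel genes were divided, with 9 higher and 16 lower of 49 tested (median −0.13), against 5.80% and 9.08% of all genes. Without BALB/c, 7 and 13 of these were called. Kcnn3, a small-conductance calcium-activated channel, lay at 432, 441, 384 and 468 CPM against 161, 164, 167 and 165 (1.50 ± 0.07, adjusted p = 1.32e-22, edgeR). Kcnc2, a Kv3 channel of fast-spiking neurons, lay at 48.5, 59.8, 68.4 and 72.3 CPM against 207, 186, 202 and 203 (−1.54 ± 0.10). Kcna1 (1.11) and the inward rectifiers Kcnj3 (1.03) and Kcnj6 (0.90) were higher. The A-type accessory subunit Kcnip4 (−1.72) and the M-channel subunit Kcnq3 (−1.13) were lower.

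Genes for adhesion and wiring differed widely. Of 26 cadherins and related adhesion genes, 7 were higher and 13 lower (median −0.46), against 5.80% and 9.08% of all genes. All of these called genes kept the call without BALB/c. Cdh7 lay at 462, 463, 460.1 and 391 CPM against 163, 167, 186 and 152 (1.51 ± 0.07, adjusted p = 3.56e-23, edgeR), followed by Cdh11 (1.10) and Cdh12 (1.05). Cdh9 (−2.68 ± 0.18), Cntn5 (−2.20), Cdh4 (−2.17) and Cntnap5b (−2.09) were lower. Of 42 axon guidance genes, 10 were higher and 10 lower (median 0.18), against the same shares of all genes, and 9 and 10 were called without BALB/c. The repellent ligand Slit2 lay at 40.6, 59.8, 76.1 and 15.5 CPM against 323, 269, 251 and 224 (−2.61 ± 0.15), while its relative Slit1 was higher by 1.05. Ntn4, a netrin, was higher by 1.41, and the ephrin receptor Epha4 lay at 484, 498, 345 and 488 CPM against 226, 231, 205 and 205.

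Among 21 collagen and discoidin receptor genes, 6 were higher and 6 lower (median −0.36), against 5.80% and 9.08% of all genes. Without BALB/c all 6 higher genes but only 1 lower gene, Col8a1, kept the call. Besides Ddr2 and Col6a3, the collagen IV chains Col4a1 (73.4, 72.8, 104 and 109 CPM against 28.0, 31.4, 34.0 and 34.0, higher by 1.62 ± 0.11) and Col4a2 (1.15) stood out, with Col1a1 (2.30) and Col23a1 (1.55). The partners of Col6a3 in collagen VI went the other way, Col6a1 by −1.44 and Col6a2 by −2.23, and Col6a2 was lost without nude as well. Of 10 perineuronal net genes 1 was lower, Vcan by −0.84, which is near the 9.08% of all genes. Of 32 Wnt pathway genes 2 were higher (Lgr5 by 1.04 and Znrf3 by 0.74) and 1 lower (Tcf7l1 by −1.02), where 5.80% and 9.08% of all genes were, so that these counts show nothing about the list. Without BALB/c only Znrf3 of the 3 was called, and Lgr5 was lost without nude as well.

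Of 38 septal and forebrain transcription factors, 11 were higher and 15 lower (median −0.06), against 5.80% and 9.08% of all genes. Without BALB/c, 10 and 12 of these were called. Zic4, a zinc finger factor of the septum, lay at 207, 191, 369 and 386 CPM against 81.7, 79.9, 108 and 93.8 (1.76 ± 0.09, adjusted p = 2.82e-21, edgeR). Sox5 lay at 659, 687, 643 and 694 CPM against 272, 297, 326 and 271, and Zeb2 (1.32), Zic2 (1.09), Satb1 (0.91) and Zic1 (0.90) were also higher. Tshz2 (−2.21), Onecut2 (−2.16), Ebf1 (−2.07), Rarb (−1.40) and Foxp1 (−1.06) were lower.

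Immediate early genes, which neurons induce when active, were lower for 8 of 11 tested and higher for 1, Egr4 (0.97), with a median of −1.02. Over all genes 9.08% were lower and 5.80% higher. Fos differed by −1.81, Junb by −1.28, Jun by −1.20 and Egr3 by −1.02, and Fosb had 1 UMI in all members (28.6-fold lower, with a counting interval of 5.13 to 1129). Fos, Junb, Jun and Arc were no longer called without BALB/c, which left 4 lower genes, nor Arc without nude. Of the 5 genes that the study tied to fear and associative learning, Glp1r (−0.89) and Synpo (−1.26) were lower, neither of them without BALB/c. The study picked these genes from the same libraries, so their count is not independent evidence.

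A pair of LS populations shared single markers with the members and was compared directly. Cpa6 Col15a1 neurons (542 nuclei with at least 1 Col15a1 UMI, 2 or more Cpa6 UMIs and no Met UMI) share Cpa6, and 140 of the 433 members held 2 or more Cpa6 UMIs. Crhr2 Dach2 neurons (538 nuclei with at least 1 Crhr2 UMI, 2 or more Dach2 UMIs, and no Col15a1 or Met UMI) share Grid2ip, which had a UMI in 44.1%, 46.7%, 35.0% and 56.4% of them. Of the members, 31 met the Crhr2 and Dach2 limits. Many of these comparison nuclei, 514 and 485, also belonged to the other Trpc4 GABA neurons, so the comparisons are not independent.

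Against Cpa6 Col15a1 neurons 7.33% of 10272 genes were called higher in the members and 9.25% lower. Stac lay at 403, 377, 390.4 and 575 CPM in the members against 20.7, 28.8, 37.3 and 7.65 CPM (4.28 ± 0.24, adjusted p = 4.17e-10, edgeR), and its relative Stac2 was higher by 3.96 ± 0.14. The noncoding 4921539H07Rik (4.45 ± 0.24), 6330411D24Rik (4.08 ± 0.23) and Gm20619 (4.04 ± 0.28) were higher here too. Reln, the secreted matrix glycoprotein reelin, lay at 13.5, 9.11, 30.4 and 13.3 CPM in the members against 170.4, 181, 192 and 254 CPM (−3.69 ± 0.19, adjusted p = 1.37e-10, edgeR). Separation of the groups in all 4 libraries was a condition for naming these genes.

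Pappa, a protease that cleaves binding proteins of insulin-like growth factors, lay at 2.26, 1.30, 1.27 and 1.85 CPM against 43.5, 32.9, 66.5 and 47.7 (−4.64 ± 0.28). Pik3c2g, a class II PI3-kinase, lay at 3.39, 2.60, 3.80 and 0 CPM against 55.6, 46.9, 32.3 and 30.0 (−4.42 ± 0.38), and the histamine receptor Hrh1 at 3.39, 0, 2.54 and 1.11 CPM against 21.7, 33.5, 21.8 and 24.1 (−3.84 ± 0.39). The 2 UMIs of 2310002F09Rik compared with 115, 161, 97.0 and 58.3 CPM there, 275-fold lower with an interval of 76.0 to 2267. Of the lists, transcription factors had 12 higher and 7 lower of 33, potassium channels 11 and 11 of 40, and glutamate receptors 6 and 4 of 20. GABA and glycine receptors had 3 and 0 of 16 and Wnt genes 0 and 0 of 13, against 7.33% and 9.25% of all genes.

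Against Crhr2 Dach2 neurons 6.17% of 8872 genes were called higher in the members and 5.60% lower. Col6a3 was at 11.9, 10.7, 13.1 and 20.2 CPM in those neurons, below every member library (3.53 ± 0.14, adjusted p = 6.28e-13, edgeR). The proprotein convertase gene Pcsk6 lay at 71.1, 27.3, 68.4 and 112 CPM against 5.94, 5.97, 6.56 and 10.1 (3.36 ± 0.20), and Mctp2 at 16.9, 24.7, 33.0 and 10.3 CPM against 1.70, 3.58, 2.92 and 0.459 (3.40 ± 0.37). The noncoding 4930567K20Rik (3.64 ± 0.29) and Gm20619 (3.43 ± 0.29) completed the 5 largest under the same limits on CPM and separation.

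The genes lower in the members than in Crhr2 Dach2 neurons included both central genes of acetylcholine neurons. Chat, the enzyme of acetylcholine synthesis, had 2 UMIs in all members (1.13, 1.30, 0 and 0 CPM) against 41.6, 58.5, 51.1 and 67.9 CPM, a ratio of 146-fold lower with an interval of 40.5 to 1208. A Chat UMI was found in 25.2%, 25.7%, 23.6% and 34.9% of the Crhr2 Dach2 nuclei. Slc5a7, the choline transporter, lay at 1.13, 2.60, 3.80 and 1.85 CPM against 18.7, 32.2, 29.9 and 41.3 (−3.90 ± 0.32, adjusted p = 1.39e-08, edgeR). Tafa1, a secreted chemokine-like protein, lay at 77.9, 328, 339.7 and 294 CPM against 4086, 5598, 4875 and 5791 (−4.36 ± 0.17), and Thsd7b at 33.9, 55.9, 67.2 and 32.1 CPM against 598, 735, 803 and 810.2 (−4.06 ± 0.14). Sfta3-ps differed by −4.49 ± 0.26.

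Of 25 receptor genes called higher over the other LS neurons, 19 could be tested here, and 10 were called higher, 1 lower and 8 in neither direction. Grm4 was the lower one, by −0.73. Those not called included Grin2b (0.15, adjusted p = 0.0872, edgeR), Grm8 (0.07), Gabrg3 (−0.12), Gria2 (0.28), Htr1f (0.24) and Nr3c2 (0.41). Stac, far higher than in Cpa6 Col15a1 neurons, differed by −0.17 ± 0.08 from Crhr2 Dach2 neurons (adjusted p = 0.156, edgeR), and 4921539H07Rik by 0.48 ± 0.13, short of the limit on size. Prlr, by contrast, was higher by 2.92 ± 0.16. The adhesion genes Cdh12 (2.84) and Cdh11 (2.08) and the transcription factors Nfib (2.42) and Zeb2 (2.37) were higher as well. Of 8 immediate early genes 6 were lower, Fos by −2.63 and Junb by −2.08, and 0 were higher. Peptide and hormone receptors had 6 higher and 0 lower of 17 tested. Over all genes in this comparison 6.17% were higher and 5.60% lower.

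The members were not uniform. After thinning to 2000 UMIs, the genes whose counts varied most between members were ranked by the Fano factor, the variance over the mean, which is near 1 for counting noise (median 1.06, 1.06, 1.07 and 1.07 over 2481 genes). Galntl6, an enzyme of protein glycosylation, stood at 14.0, 5.81, 15.3 and 15.4, the highest of the top 10 except in C57J 2. The heparan sulfate proteoglycan Gpc5 (8.10, 8.50, 10.3 and 8.55) and the neuregulin receptor Erbb4 (9.86, 9.47, 10.1 and 8.13) were also among them. Meg3, Ptprt, Hs6st3, Nxph1, Lrrtm4, Kcnip4 and Tenm2 completed the top 10. Kcnip4 was uneven between libraries, at 3.53 and 2.83 in the C57J libraries and 11.4 and 13.5 in nude and BALB/c.

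Col6a3 divided the members into nuclei with and without a UMI of it, and this division, made after the values were seen, is given as a description. Members with a Col6a3 UMI were 42 of 89, 33 of 84, 49 of 83 and 129 of 177. Their median depths were 8674, 8324, 9154 and 14684 UMIs against 9274, 7744, 8112.5 and 13726.5 in those without. Cpa6 lay at 402, 254, 382 and 322 CPM in the members with Col6a3 and at 165, 61.1, 223 and 50.3 CPM in those without, higher in every library. Prlr was likewise higher, at 242, 113, 323 and 232 CPM against 73.9, 91.7, 180.0 and 84.8, as was the laminin chain Lama3, at 77.6, 96.6, 194 and 152 CPM against 48.6, 48.0, 53.3 and 89.1.

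Met and Mob3b did not keep to one side of this division in all libraries. Met lay at 305, 325, 274 and 264 CPM with Col6a3 and at 319, 378, 303 and 241 CPM without, and Mob3b at 511, 538, 679 and 747 CPM with and at 522, 482, 593 and 441 CPM without. Met was thus lower with Col6a3 in 3 of 4 libraries, and Mob3b was higher with Col6a3 in 3 of 4, with its widest gap in BALB/c. No test was made of either. Foxp2 in C57J mice was concentrated in the members without Col6a3 (148 and 223 CPM against 38.8 and 19.3), whereas in nude it was higher in those with Col6a3 (92.0 against 23.3 CPM) and in BALB/c it was low in both (18.9 and 10.1 CPM). Across the members, the correlation of Col6a3 with Cpa6 was 0.30, 0.40, 0.43 and 0.51 (n = 89, 84, 83 and 177 nuclei of 1 library each, which share that library's depth).

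The backgrounds were then compared within the members, with 2 C57J libraries against nude and BALB/c together. A positive difference means a higher level in the BALB/c background. Of 8321 genes tested, 0.457% were called higher and 0.517% lower in that background (38 and 43 genes). Of these, 34 and 39 had groups that did not overlap. Groups of 2 libraries against 2 often separate without any difference (smallest p 0.333 in an exact permutation), so these counts only describe the calls. At an unadjusted p below 0.05 there were 880 genes. DESeq2 called 32 genes in place of 81. With edgeR 137 genes were called without C57J 1, which is the comparison within the second batch, and 120, 249 and 129 without C57J 2, nude and BALB/c. Each of these fits leaves 1 library on one side, which is assumed to vary like the libraries of the other side. In the other Trpc4 GABA neurons, which give deeper sums, 434 of 19049 genes were called between the backgrounds by the same rule (176 higher and 258 lower), and the counts in the 2 sets of nuclei are not compared for that reason.

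Some glial transcripts, but not all, moved with the same contrast in the members. Microglia markers summed to 21.4, 32.5, 16.5 and 21.8 CPM in the members, and those of oligodendrocyte precursors to 6.77, 2.60, 6.34 and 9.23 CPM. In both, the backgrounds overlapped. The 4 astrocyte markers summed to 160.3, 111, 71.0 and 67.2 CPM in the members, lower in both BALB/c-background libraries. In the other neurons they summed to 148, 113, 121 and 103 CPM, and the backgrounds overlapped. The most abundant, the glutamate transporter gene Slc1a3, lay at 112, 83.2, 59.6 and 52.8 CPM in the members. The 6 oligodendrocyte markers summed to 459, 376, 249.7 and 307 CPM in the members and to 429, 418, 293 and 272 CPM in the other neurons. Of these markers, 2 and 3 could be tested between the backgrounds in the members (medians −1.16 and −0.60) and none was called by edgeR. The part of glial RNA in the background differences was not tested.

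Cfap54, a gene of the ciliary axoneme, lay at 44.0, 36.4, 165 and 168 CPM in the members, higher in both BALB/c-background libraries (2.07 ± 0.19, adjusted p = 4.10e-04, edgeR). The other LS neurons carried the same order, at 75.3, 83.0, 271 and 273 CPM. Dock5, an exchange factor for RAC, lay at 21.4, 20.8, 76.1 and 72.3 CPM (1.82 ± 0.25), and Gask1b at 10.2, 3.90, 36.8 and 54.2 CPM (2.73 ± 0.41). Zfp808, a zinc finger gene, lay at 7.90, 2.60, 31.7 and 30.6 CPM, and the fibrillin gene Fbn2 at 22.6, 16.9, 98.9 and 54.6 CPM. Backgrounds that did not overlap in the members were a condition for naming these genes. For each of them the lower of the nude and BALB/c values also exceeded the higher of the C57J values in the other neurons. In the other neurons Gask1b lay at 2.89 and 2.60 CPM in C57J, with 6.54 CPM the lower of its nude and BALB/c values, Zfp808 lay at 3.77, 3.52, 26.9 and 24.8 CPM and Fbn2 at 40.5, 41.8, 118 and 108 CPM, and all 3 were called there too (1.51, 2.84 and 1.47). Dock5 lay at 16.6, 20.4, 32.3 and 27.1 CPM there and was not called (0.70 ± 0.14, adjusted p = 0.0636, edgeR).

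Fggy, a carbohydrate kinase gene, lay at 42.9, 32.5, 2.54 and 4.43 CPM in the members (−3.21 ± 0.41, adjusted p = 0.00523, edgeR) and at 67.5, 65.7, 12.7 and 11.5 CPM in the other neurons. The noncoding 1500004A13Rik lay at 76.7, 112, 15.2 and 8.86 CPM in the members and at 116, 134, 16.5 and 14.5 CPM in the others. Rab27b, a GTPase of secretory vesicles, lay at 42.9, 59.8, 20.3 and 8.86 CPM (−2.03 ± 0.38), its effector Sytl2 at 19.2, 27.3, 2.54 and 4.06 CPM (−2.60 ± 0.47), and Rab3b at 23.7, 29.9, 5.07 and 4.43 CPM (−2.49 ± 0.42). In the other neurons Rab27b was at 82.7, 75.6, 39.9 and 37.8 CPM, while Sytl2 (14.8, 18.2, 16.0 and 12.2 CPM) and Rab3b (28.5, 27.0, 21.9 and 24.9 CPM) were nearly level there. Rab3b and Rab27b were not called without BALB/c, nor Rab3b and Sytl2 without C57J 2.

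The adhesion gene Clmp lay at 39.5, 33.8, 10.1 and 4.80 CPM (−2.52 ± 0.41) and the scaffold gene Iqgap2 at 51.9, 49.4, 20.3 and 7.75 CPM (−2.12 ± 0.39). Mid1, a ubiquitin ligase gene of the X chromosome, lay at 48.5, 26.0, 10.1 and 1.85 CPM (−3.20 ± 0.57). All 3 were also called lower in the other neurons, Clmp at 35.4, 36.6, 18.7 and 23.1 CPM (−0.77), Iqgap2 at 72.0, 72.2, 38.8 and 35.0 CPM (−0.95) and Mid1 at 48.0, 23.3, 11.4 and 8.67 CPM (−1.83). On the higher side Vav3 (1.76 ± 0.31), Ptgfrn (1.46 ± 0.27), Noa1 (2.61 ± 0.53), Gm26713 (4.00 ± 0.81) and Gm3448 (1.82 ± 0.38), and on the lower side Gm31508 (−2.27) and Gm47352 (−2.18), were named by the same rule. Gm26713 rested on few counts, with 0, 2, 24 and 42 UMIs in the members, and lay at 6.23, 15.7, 25.9 and 17.4 CPM in the other neurons. Noa1 had 6, 9, 18 and 203 UMIs in the members, most of them in BALB/c. Noa1, Ptgfrn, Gm3448, Iqgap2, Gm31508 and Gm47352 were lost without BALB/c, Mid1, Gm3448 and Gm47352 without C57J 1, Gm31508 and Gm47352 without C57J 2, and Gm47352 without nude. DESeq2 did not call Zfp808, Ptgfrn, Gm26713, Gm3448, Sytl2, Rab3b, Rab27b, Iqgap2, Gm31508 or Gm47352. In members with at least 3 Met UMIs, edgeR did not call Gask1b, Zfp808, Fbn2, Dock5, Vav3, Gm3448, Mid1, Clmp or Iqgap2.

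**Figure D5:**
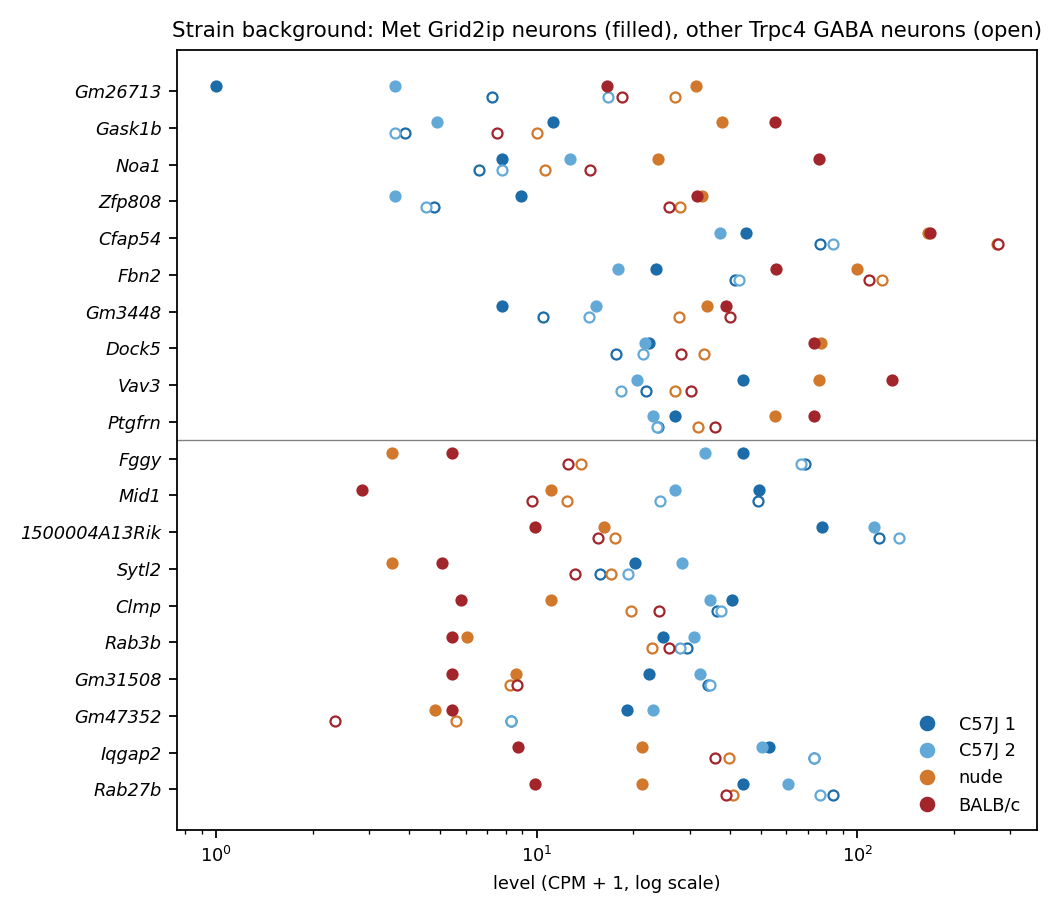
Level of the 20 genes named in the comparison of backgrounds, in CPM + 1 on a log axis, with filled points for the members, open points for other Trpc4 GABA neurons and 1 colour per library. For Cfap54 the nude and BALB/c points of the members stand at 165 and 168 and the C57J points at 44.0 and 36.4, while for Rab3b the open points lie between 21.9 and 28.5 in all libraries.

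Of 253 genes of the lists that could be tested between the backgrounds, 12 were called, 5 higher and 7 lower (4.74%, against 0.973% of all genes tested). The lists were chosen with earlier results known, Ddr2 is among the 12, and nothing is read from the difference of these shares. Ddr2 lay at 92.5 and 111 CPM in C57J and at 27.9 and 48.3 CPM in nude and BALB/c, and at 14.5, 18.0, 8.68 and 6.67 CPM in the other LS neurons. Its strain difference was known from these libraries when the gate was drawn, so its values are a description and no test is given. Ror1, another of the subtype markers, lay at 84.6, 67.6, 25.4 and 33.2 CPM (−1.29 ± 0.24).

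Slit3 lay at 393, 433, 169.9 and 91.2 CPM (−1.72 ± 0.23, adjusted p = 0.00523, edgeR) and Cdh12 at 509, 494, 266 and 231 CPM, both lower in the BALB/c background. Zic4 lay at 207, 191, 369 and 386 CPM (0.95 ± 0.14), and Nrp2, a receptor of semaphorins, at 68.8, 76.7, 165 and 156 CPM (1.16 ± 0.17). These 4 genes, with Cfap54, Fggy and 1500004A13Rik, kept their calls with either tool, with every library left out in turn and under the further settings in which they could be tested, other than the depth and makeup settings added later. Col4a2 (73.4, 55.9, 142 and 149 CPM), Col6a3 (1.02 ± 0.17) and Ntn4 (48.5, 52.0, 86.2 and 138 CPM) were higher, and Kcnh1 (83.5, 103, 46.9 and 36.5 CPM) and Znrf3 (221, 209, 119 and 128 CPM) lower. Ntn4 was not called without BALB/c, Kcnh1 without BALB/c or C57J 2, and Znrf3 without C57J 1. DESeq2 called none of Ror1, Ntn4, Kcnh1 and Znrf3, and at 3 Met UMIs edgeR called none of these 4 genes, nor Col4a2 or Col6a3.

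Grm7, a presynaptic metabotropic glutamate receptor on the study's fear list, lay at 2015, 1894, 1417 and 1273 CPM (−0.51 ± 0.11, adjusted p = 0.0408, edgeR), at the edge of both limits, and was lost with DESeq2 and on leaving out C57J 1, C57J 2 or BALB/c. It was 1 of 4 genes of that list that could be tested. None of the 15 GABA and glycine receptors, 17 peptide and hormone receptors, 11 monoamine and acetylcholine receptors and 6 immediate early genes tested was called by edgeR, against 0.973% of all genes tested, a share at which few or none of so small a number would be called. The share of members with a Col6a3 UMI was 47.2% and 39.3% in C57J and 59.0% and 72.9% in nude and BALB/c, and 21.3%, 16.7%, 25.3% and 27.1% after thinning to 2000 UMIs, and no test was made of it. Among members with a Col6a3 UMI alone, edgeR called 0 genes (548 at an unadjusted p below 0.05) and DESeq2 called 13. Among those without a Col6a3 UMI, which were fewer nuclei in all, edgeR called 31. The part of this makeup and of depth in the background differences was not tested.

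Whether a background difference in the members exceeded that in the other Trpc4 GABA neurons was tested with an interaction term over 17539 genes, and 0.234% were called more positive and 0.200% more negative in the members (41 and 35 genes). The fit assigned 1 spread to all genes, so its p-values lean on that value, and DESeq2 called 10 genes. Zfp804b, a zinc finger gene, lay at 213, 379, 172 and 115 CPM in the members and at 809.5, 891, 898 and 919 CPM in the others. It was lower in both BALB/c-background libraries of the members and not of the other neurons (−1.12 ± 0.14, adjusted p = 1.88e-11, edgeR, and 0.0111, DESeq2), but in members re-chosen on nuclei thinned to 6000 UMIs it was −0.57 (adjusted p = 1.00, edgeR). Col6a3 lay at 121, 91.1, 191 and 228 CPM in the members against 37.5, 34.2, 37.0 and 24.3 CPM in the others, an interaction of 1.37 ± 0.17. Slit3 lay at 256, 251, 163 and 158 CPM in the other neurons, and its further decrease in the members, by −1.07, was lost without BALB/c.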

How the data were processed

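Cell Ranger 7.0.1 was run by the authors against mm10, and the deposited matrices (filtered barcodes) hold unnormalized UMI counts. Their treatment of intronic reads is not given in the sources used here. The 4 libraries held 102939576, 72912922, 82169638 and 125998527 UMIs in the order of the report. Nuclei with 200 to 6000 genes, less than 2% mitochondrial UMIs and at least 2000 UMIs were kept (13581, 11191, 12251 and 11917). Counts were summed per library and group and tested with edgeR 4.0.16 (R 4.3.3; TMM, filterByExpr, quasi-likelihood, Benjamini-Hochberg adjustment), and DESeq2 1.42.0 served as an alternative. Comparisons between groups of nuclei had the library as a block. Gene positions follow GENCODE vM21. Doublets were scored in scanpy 1.11.5 at an expected rate that grows with the number of barcodes. An exact permutation of 2 libraries against 2 cannot go below p = 0.333, so single values were not tested that way. The C57J 1 and C57J 2 members differed by more than sampling noise (chi-square per degree of freedom 1.87). The scripts were tested on simulated data.

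Named genes were those with the largest called differences whose libraries all separated and whose mean reached 20 CPM in the higher group (10 each way against other neurons and between backgrounds, 5 each way otherwise), the 5 smallest p of the interaction, genes of the MET and delta receptor lists, and called genes of the other lists, of which the main ones are given. A few genes of the lists are not reported here. The members and the gene lists were chosen with earlier results of these data known. Alternatives changed the tool, the filter, the depth, the Met minimum, the block, the batch term, doublet removal and the libraries included.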

Additional observations from a re-analysis of the deposited data

Results flagged for a closer look

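A difference between backgrounds that itself differed between the members and the other Trpc4 GABA neurons, by the interaction term in edgeR, was found for 5 genes named by the smallest p. As in the report, 4 values in a row give C57J 1, C57J 2, nude and BALB/c. Il1rapl2, an accessory protein of the interleukin-1 receptor family that acts at synapses, lay at 262, 191, 238 and 1519 CPM in the members and at 532, 526, 495 and 725 CPM in the others. Its interaction of 1.48 ± 0.14 (log2, SE; adjusted p = 7.79e-22, edgeR) came from BALB/c alone, since it was 0.19 without that library and DESeq2 gave an adjusted p of 0.998. The nude members, of the same background, lay among the C57J members.

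Foxp2, a forkhead transcription factor, lay at 97.1, 140.5, 65.9 and 16.6 CPM in the members and at 299.7, 245, 203 and 231 CPM in the others (−1.60 ± 0.20, adjusted p = 1.64e-11, edgeR). The value was −0.39 without BALB/c, −0.61 with predicted doublets removed and 0.74 among members with a Col6a3 UMI, and none of these passed the test. Col6a3 gave 1.37 ± 0.17 (adjusted p = 1.64e-11, edgeR) and 0.83 to 1.70 when a library was left out, still called each time. Its adjusted p in DESeq2 was not available.

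Cpa6, at 275, 139, 322 and 252 CPM in the members and 158, 198, 146 and 88.2 CPM in the others, gave 1.17 ± 0.15 (adjusted p = 1.64e-11, edgeR) but 0.58 without C57J 2 (adjusted p = 0.443, edgeR), and it was not called by DESeq2. Cpa6 was higher in members with a Col6a3 UMI, whose share was largest in BALB/c, and the part of this makeup in the result was not tested. Zfp804b gave −1.12 ± 0.14 (adjusted p = 1.88e-11, edgeR), between −0.76 and −1.46 when a library was left out, and was called by both tools, without the low-count filter and with predicted doublets removed. In members re-chosen on nuclei thinned to 6000 UMIs it was −0.57 (adjusted p = 1.00, edgeR).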

How the results depend on the processing

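The log2 ratio of the share of nuclei in the gate, nude over C57J, was −0.04 and became −1.15 after thinning to 2000 UMIs (2 to 7 nuclei per library) and −0.51 at 3 Met UMIs. BALB/c over C57J was 1.09 and became 0.47 after thinning to 2000 UMIs, 0.25 after thinning to 6000, 1.63 at 3 Met UMIs and 0.67 at 1. Against other Trpc4 GABA neurons, 1690 to 3089 genes were called under the alternatives (2447 in the report), 1757 to 2401 when a library was left out and 1971 without the library block. Against Cpa6 Col15a1 neurons the counts were 1083 with DESeq2, 1361 to 1660 when a library was left out and 1451 without the block (1703 in the report). Against Crhr2 Dach2 neurons they were 690, 833 to 1053 and 762 (1044). The 11 genes followed in each of the last 2 comparisons (those named by size and Ddr2) kept their calls wherever tested.

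For the backgrounds, the 81 calls became 32 with DESeq2, 245 without the filter, 18 at 3 Met UMIs, 34 in members thinned to 2000 UMIs and 120 to 249 when a library was left out. After the data were seen, members re-chosen at 6000 UMIs gave 16, those with a Col6a3 UMI 0 (13 with DESeq2) and those without one 31. Of 32 named genes, 7 were called under each setting chosen at the start. The same held for 1 of 19 genes followed in the interaction and 149 of 219 against other Trpc4 GABA neurons. The 76 interaction calls became 10 with DESeq2, 33 to 156 when a library was left out, 35 at 6000 UMIs and 42 with a Col6a3 UMI. Reversed signs were seen for Cck (−0.45) and Tacr1 (−0.02) at 3 Met UMIs, and in the interaction for Foxp2 (0.74, members with a Col6a3 UMI) and Cntn5 (0.52, members re-chosen at 6000 UMIs). The causes were not tested. No paired analysis of the backgrounds was possible because libraries of different strains share only a number. A batch term takes C57J 1 out of the contrast, since it is alone in its batch, and leaves C57J 2 as the only C57J library. Some of the 32 named genes lost their call with it. In simulated data the interaction recovered few differences of small size, and depth limits genes of a few UMIs.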
